A study of Homo sapiens with 6 samples.

Results

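The ID proteins (inhibitor of DNA binding) and the HES, HEY and BHLHE proteins are helix-loop-helix repressors, and 9 of their genes were followed here through the response of MDA-MB-231 cells to a histone deacetylase (HDAC) inhibitor: ID1, ID2, ID3, ID4, HES1, HES4, HEY1, BHLHE40 and BHLHE41. They were picked by symbol, which was matched to the NCBI Gene ID of the deposited tables, and 9 of 9 were found among 16623 genes. The choice was made with earlier results of these data known, so shares of members or listed genes beside those of all genes are description only. The line comes from a breast cancer that lacked hormone receptors and HER2 amplification, and PCI-24781 is a hydroxamic acid that inhibits HDACs. RNA-seq had 6 libraries, 1 for each condition: the solvent DMSO, 100 nM PCI-24781 and 200 nM PCI-24781, each for 24 h and for 48 h in adherent culture with serum. No condition has a second library, so differences have no replicate check, no test between conditions was run, and differences between neighbouring levels cannot be set against a spread.

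ID proteins have a helix-loop-helix but no basic region. They pair with the E proteins (TCF3, TCF4 and TCF12) and keep them from binding DNA, and BMP signalling through SMAD proteins is a known inducer of ID genes. HES and HEY proteins do bind DNA and are classical targets of the Notch receptors through the DNA-binding protein RBPJ. HES proteins repress transcription with TLE corepressors. BHLHE40 and BHLHE41 (also known as DEC1 and DEC2) bind the E-box CACGTG, where they oppose the activators of the circadian clock, and both are known to respond to hypoxia.

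Expression was deposited as FPKM (fragments relative to transcript length and sequencing depth), with 2 decimals, so FPKM values may be compared between genes. The depth, inferred from the steps between low values, was about 16300000 to 18800000 fragments per library, and 3 fragments on a transcript of 2 kb are an FPKM of 0.0814 to 0.0939. Changes are differences in log2(FPKM + 1), which understate the change of low genes. A gene counted as tested when either library reached an FPKM of 1, and as called when it also changed at least 2-fold. In bulk libraries, fewer cells that express a gene and less RNA per cell cannot be told apart. Intervals of FPKM ratios are 95% exact counting intervals from the approximate number of fragments and cover counting error only. The DMSO libraries differed from each other in 2.62% of the tested genes, more than the 0.469% and 0.266% by which 100 nM and 200 nM differed from DMSO at 48 h, so every 48 h result rests on a control that stands apart from the 24 h control. Time in culture and a property of either DMSO library cannot be told apart. Of the cell line's markers, VIM, CD44, CAV1, AXL and FN1 were high (FN1, the lowest of them, had an FPKM between 39.73 and 119.72), while SPARC was between 0.44 and 1.97. ESR1 and PGR were at or below an FPKM of 0.04 and CDH1 at or below 0.39, but ERBB2 had 13.16 to 21.36 and EPCAM 2.26 to 4.70. The leukocyte marker PTPRC was between 0.76 and 1.01 and the endothelial marker PECAM1 between 0.38 and 2.33, and their part in the results was not tested.

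Upstream sequences are shown for HES1 with HES4 and for BHLHE40 with BHLHE41, of which HES4 was not called 2-fold in any comparison. They are the 250 bases before the RefSeq start on GRCh38.p14, 5′ to 3′ on the strand of the gene. The capitals mark GTGGGAA, the core bound by RBPJ, in HES1 and HES4, and the E-box CACGTG in BHLHE40 and BHLHE41.
HES1 (chr3:194135898-194136147, plus strand): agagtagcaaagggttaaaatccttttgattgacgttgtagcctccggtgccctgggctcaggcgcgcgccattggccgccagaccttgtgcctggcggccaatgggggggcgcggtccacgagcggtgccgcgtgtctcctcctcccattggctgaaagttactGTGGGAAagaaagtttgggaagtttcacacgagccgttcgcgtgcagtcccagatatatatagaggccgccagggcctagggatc
HES4 (chr1:1000098-1000347, minus strand): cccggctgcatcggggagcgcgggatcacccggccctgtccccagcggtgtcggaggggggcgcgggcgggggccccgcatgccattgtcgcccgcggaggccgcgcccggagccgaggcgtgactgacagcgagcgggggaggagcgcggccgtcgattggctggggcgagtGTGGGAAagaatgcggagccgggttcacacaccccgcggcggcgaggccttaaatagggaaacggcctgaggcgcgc
BHLHE40 (chr3:4979187-4979436, plus strand): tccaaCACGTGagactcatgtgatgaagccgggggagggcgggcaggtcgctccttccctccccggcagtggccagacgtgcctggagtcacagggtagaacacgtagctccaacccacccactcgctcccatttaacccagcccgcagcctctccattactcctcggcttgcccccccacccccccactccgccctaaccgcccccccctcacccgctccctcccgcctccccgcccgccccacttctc
BHLHE41 (chr12:26125038-26125287, minus strand): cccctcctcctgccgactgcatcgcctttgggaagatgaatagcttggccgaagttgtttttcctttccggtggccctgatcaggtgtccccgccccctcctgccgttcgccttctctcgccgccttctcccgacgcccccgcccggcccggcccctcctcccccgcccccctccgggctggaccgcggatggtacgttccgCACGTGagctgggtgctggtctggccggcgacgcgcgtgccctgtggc

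The letters GTGGGAA lie from -85 to -79 before the start of HES1 and from -77 to -71 before that of HES4. They belong to a run of 12 bases, TGTGGGAAAGAA, that is the longest the HES1 and HES4 windows share on the same strand. Among 35116 RefSeq windows of this length, 5.43% hold GTGGGAA on either strand and 6 hold the 12-base run, which was searched after the windows had been read. CACGTG, held by 6.34% of the windows, lies from -245 to -240 in BHLHE40 and from -48 to -43 in BHLHE41. The N-box CACNAG and the class C motif CACGCG, both bound by HES proteins, are held by 32.0% and 9.72% of the windows. HES1 has 3 N-box and 2 class C matches, BHLHE41 has 1 class C match and ID1 has 1 N-box match. None of these matches overlaps another. The windows of ID2, ID3 and ID4 hold none of the 4 motifs, and a window of HEY1 was not used here.

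**Figure D1:**
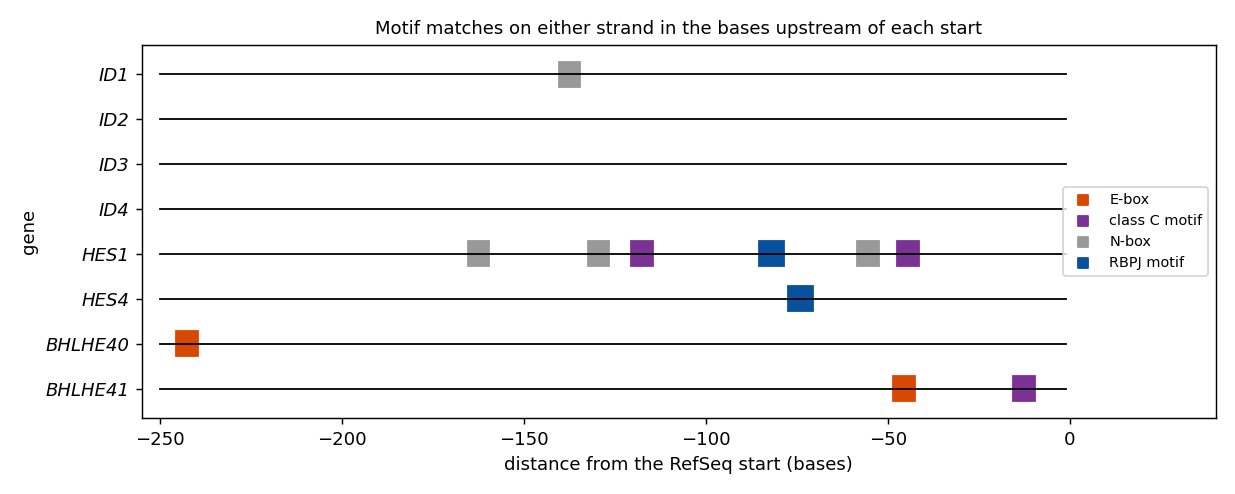
Positions of the matches to the E-box CACGTG, the class C motif CACGCG, the N-box CACNAG and the RBPJ core GTGGGAA, on either strand, in the 250 bases before the RefSeq start of 8 genes; the x axis is the distance from the start in bases. The RBPJ core sits at nearly the same distance in HES1 and HES4, at -85 and -77, and the E-box is far from the start in BHLHE40 and near it in BHLHE41.

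At 24 h, the Notch target genes HES1 and HEY1 rose at 200 nM. They were 2 of the 7 members tested, while 5.96% of all tested genes were called in this comparison (4.49% higher), and no member was called lower. Neither is called if both libraries must reach an FPKM of 1. The change was above 0 for 9 of 9 members at 200 nM, ID2 and ID4 being untested, and for 51.2% of all 11660 tested genes. For ID3, ID4 and BHLHE40 the interval of the FPKM ratio included no change. The median was 0.76 over the 9 members and 0.82 over the 7 tested, against 0.01 over all tested genes. At 100 nM, 0 of 6 tested members were called (1.48% of all genes were). The median was 0.21 over the 9 and 0.28 over those tested, with 6 of the 9 above 0, as were 51.6% of all tested genes. Of those 6, ID2, ID4 and HEY1 were not tested. Both doses are compared with the same DMSO library. From DMSO to 100 nM to 200 nM at 24 h, FPKM went up at each step in ID2, ID4, HES1, HES4, HEY1 and BHLHE41, of which 4 were among the 7 members that reached an FPKM of 1 at 24 h, and 32.2% of all such genes had this order. With a 1.5-fold threshold, HES4 and BHLHE41 were called too at 200 nM 24 h, which makes 4 of 7 members where 20.2% of all genes were called, and BHLHE41 alone at 100 nM, where 6.83% were.

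**Figure D2:**
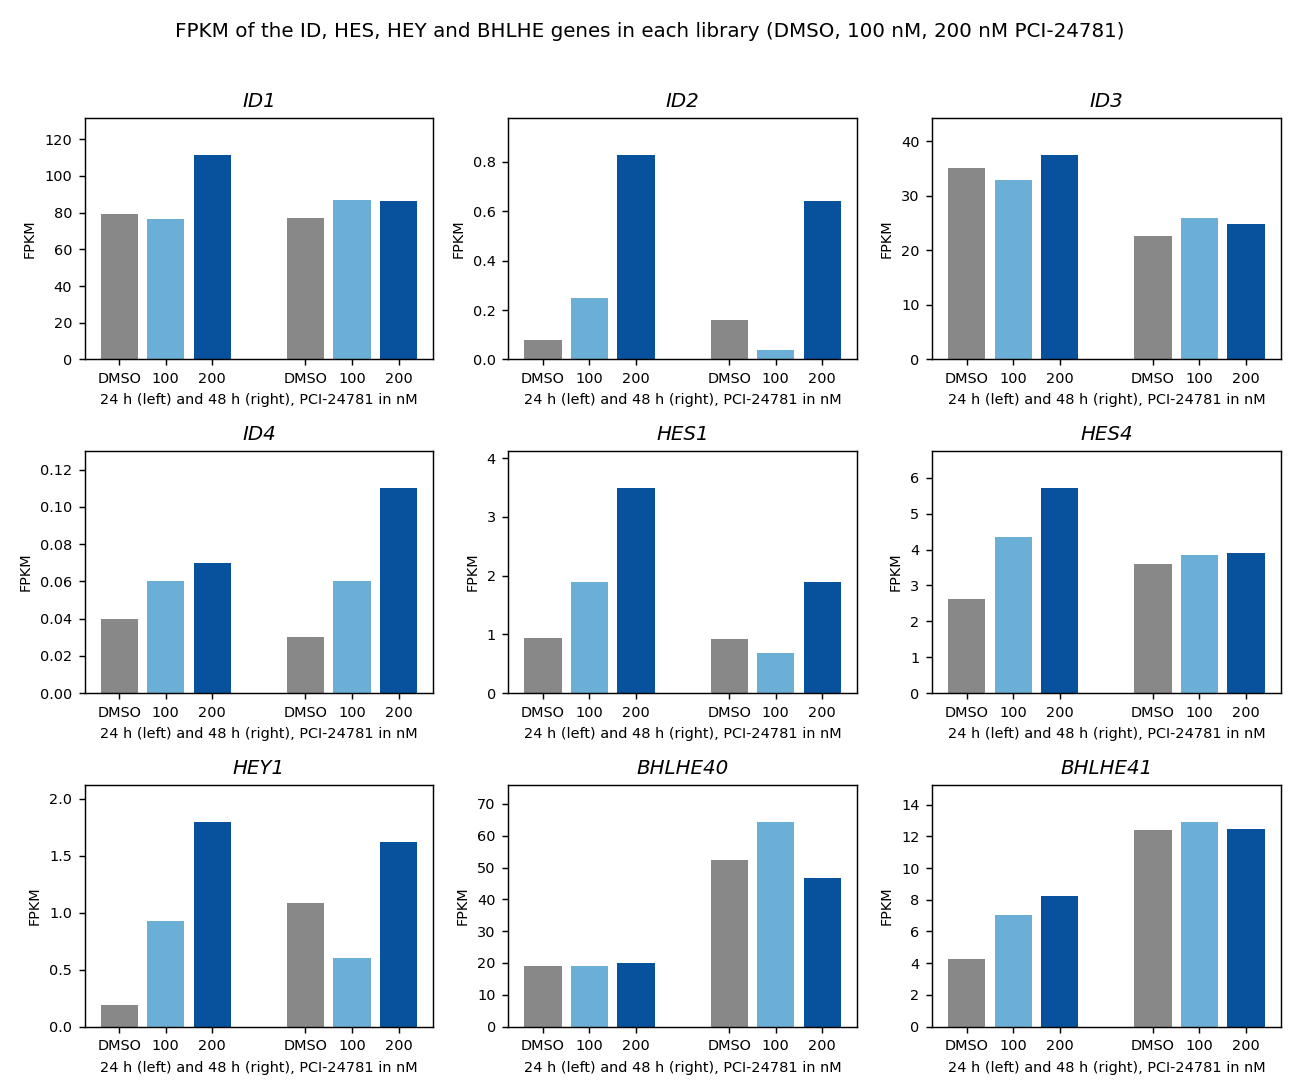
FPKM (y axis, linear from 0, a scale of its own for each gene) of the 9 genes in each library; x axis, DMSO in grey, 100 nM in light blue and 200 nM in dark blue, with 24 h on the left and 48 h on the right, and 1 library per bar. HES1 is highest at 200 nM 24 h with 3.49, and the BHLHE40 bars at 48 h, 46.69 to 64.39, are all above those at 24 h.

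HES1 (NCBI Gene ID 3280, chromosome 3 from 193853931 to 193856401 on the plus strand of hg19) encodes a repressor of differentiation genes that also represses its own promoter. After 24 h its FPKM was 0.94 under DMSO, 1.90 under 100 nM and 3.49 under 200 nM, and after 48 h it was 0.92, 0.68 and 1.90. Both 200 nM libraries were above the DMSO library of their time, while the 100 nM library was above it at 24 h and below it at 48 h. The level at 200 nM 24 h was 3.71 times that in DMSO (interval 2.41 to 5.95, about 97 against 27 fragments), a log2 change of 1.21. At 200 nM 48 h the ratio was 2.07 (1.26 to 3.48) and the log2 change of 0.59 was short of 2-fold, since a pseudocount of 1 weighs on such low values. Of 11665 tested genes, 171 had a change at least as large there. The ratios at 100 nM were 2.02 (1.27 to 3.39) at 24 h and 0.739 (0.376 to 1.35) at 48 h, and the interval of the latter includes no change. HES1 hardly differed between the DMSO libraries, with a ratio of 0.979 (0.555 to 1.76).

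HEY1 (NCBI Gene ID 23462, chromosome 8 from 80676245 to 80680098 on the minus strand of hg19), a further Notch target, had the lowest level of these Notch targets in DMSO 24 h. After 24 h its FPKM was 0.19 under DMSO, 0.93 under 100 nM and 1.80 under 200 nM. After 48 h it was 1.09, 0.60 and 1.62. The DMSO 24 h library was thus the lowest of the 6, with about 7 fragments. The ratio to it was 9.47 (4.28 to 24.2) at 200 nM, a log2 change of 1.23, and 4.89 (2.07 to 12.8) at 100 nM, where neither library reached an FPKM of 1. The DMSO 48 h library was itself 5.74 times DMSO 24 h (2.53 to 15.2), a log2 change of 0.81. Against DMSO 48 h, the log2 change was -0.39 at 100 nM and 0.33 at 200 nM, with ratios of 0.550 (0.313 to 0.959) and 1.49 (0.949 to 2.29). With DMSO 48 h as the reference HEY1 was not called at 200 nM 24 h, while HES1 was.

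HES4 (NCBI Gene ID 57801, chromosome 1 from 934342 to 935552 on the minus strand of hg19), a relative of HES1 that mice lack, was expressed above HES1 in every library. Its 24 h levels were 2.62 under DMSO, 4.34 under 100 nM and 5.71 under 200 nM (FPKM), and its 48 h levels 3.60, 3.86 and 3.89. The levels went up with dose at 24 h, and lay close together at 48 h. The log2 change of 0.89 at 200 nM 24 h was below the threshold although the FPKM ratio was 2.18 (1.51 to 3.15), and at 48 h the changes were 0.08 and 0.09.

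The dose step does not use a DMSO library. From 100 to 200 nM at 24 h the ratio was 1.84 (1.29 to 2.59) for HES1, 1.94 (1.26 to 3.10) for HEY1 and 1.32 (0.955 to 1.80) for HES4. At 48 h it was 2.79 (1.66 to 5.19) for HES1, 2.70 (1.58 to 4.58) for HEY1 and 1.01 (0.696 to 1.45) for HES4. HES1 and HEY1 were thus higher at 200 nM than at 100 nM at both times, and HES4 at 24 h by a margin whose interval includes no change. In log2 terms no member reached 2-fold in a dose step, where 0.524% of all tested genes were called at 24 h and 2.0% at 48 h.

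ID1 and ID3 carried nearly all of the ID expression, between 99.3% and 99.9% of the summed FPKM of the 4 ID genes. ID1 (NCBI Gene ID 3397, chromosome 20 from 30193086 to 30194318 on the plus strand of hg19) had 24 h levels of 79.19 under DMSO, 76.82 under 100 nM and 111.66 under 200 nM (FPKM), and 48 h levels of 77.20, 86.76 and 86.31. The 200 nM 24 h library was the highest, and the other 5 lay between 76.82 and 86.76. The ratio to DMSO there was 1.41 (1.32 to 1.51), a log2 change of 0.49, and at 100 nM 24 h it was 0.970 (0.903 to 1.04). At 48 h both doses had a ratio of 1.12, with an interval of 1.05 to 1.2 at 100 nM and of 1.04 to 1.2 at 200 nM.

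ID3 (NCBI Gene ID 3399, chromosome 1 from 23884421 to 23886285 on the minus strand of hg19) differed more with time than with dose. Its FPKM after 24 h was 35.22 under DMSO, 32.99 under 100 nM and 37.60 under 200 nM, against 22.58, 25.93 and 24.90 after 48 h. Every 48 h library was below every 24 h library, an order held by 13.2% of the 11893 genes that reached an FPKM of 1 anywhere. Between the DMSO libraries the log2 change was -0.62, with a ratio of 0.641 (0.572 to 0.717), and against DMSO of the same time the 4 changes lay between -0.09 and 0.19, those at 48 h turning negative if DMSO 24 h is the reference.

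ID2 (NCBI Gene ID 3398, chromosome 2 from 8822113 to 8824583 on the plus strand of hg19) was below an FPKM of 1 in every library and so was never tested. After 24 h it had 0.08 under DMSO, 0.25 under 100 nM and 0.83 under 200 nM, and after 48 h 0.16, 0.04 and 0.64, values that correspond to about 2, 6 and 20 and to about 4, 1 and 14 fragments. Both 200 nM libraries were above the other 4. The ratio to DMSO at 200 nM was 10.4 (2.52 to 91.7) at 24 h and 4.0 (1.23 to 16.4) at 48 h, while the intervals at 100 nM, 0.560 to 31.7 and 0.00499 to 2.49, include no change. ID4 (NCBI Gene ID 3400, chromosome 6 from 19837601 to 19842431 on the plus strand of hg19) was between 0.03 and 0.11, or about 1 to 4 fragments, and a difference in ID4 was not detectable at this depth.

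The E proteins, the partners of the ID proteins, were represented by TCF3 and TCF12, with TCF4 at or below an FPKM of 0.12. The 24 h FPKM of TCF3 was 52.70 under DMSO, 43.96 under 100 nM and 43.03 under 200 nM, and its 48 h FPKM was 45.83, 49.80 and 40.11. TCF12 had 19.90, 19.27 and 14.90 after 24 h, then 16.78, 18.72 and 15.43. Both were lowest at 200 nM within each time, and neither reached 2-fold. Set beside the summed ID genes, this gave 1.58 FPKM of ID per FPKM of E protein under DMSO, 1.74 under 100 nM and 2.59 under 200 nM after 24 h, then 1.59, 1.65 and 2.01 after 48 h, a ratio of transcripts that was calculated after the values had been seen. Of 14 listed partners of the E proteins found in the files, ATOH8 alone reached an FPKM of 1, with 10.36 to 14.45.

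BHLHE40 followed time more than drug, while BHLHE41 differed with time and, at 24 h, also with dose. Both were called higher when DMSO 48 h was set against DMSO 24 h, as 2 of 6 tested members, where 2.62% of all tested genes were called (2.49% higher), and neither was called against DMSO of its own time. BHLHE40 (NCBI Gene ID 8553, chromosome 3 from 5021097 to 5026866 on the plus strand of hg19) had 24 h levels of 19.17 under DMSO, 19.16 under 100 nM and 20.05 under 200 nM (FPKM), and 48 h levels of 52.47, 64.39 and 46.69. The 24 h libraries lay close together and every 48 h library was above them. The DMSO 48 h library had 2.74 times the level of DMSO 24 h (2.56 to 2.92), a log2 change of 1.41 that 85 of 11490 tested genes matched or exceeded, itself included. Within 48 h the log2 change was 0.29 at 100 nM and -0.17 at 200 nM.

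BHLHE41 (NCBI Gene ID 79365, chromosome 12 from 26272959 to 26278003 on the minus strand of hg19) differed from BHLHE40 at 24 h. Its FPKM after 24 h was 4.24 under DMSO, 7.07 under 100 nM and 8.23 under 200 nM, against 12.39, 12.92 and 12.48 after 48 h. The levels went up with dose at 24 h and lay close together at 48 h. The ratios at 24 h were 1.67 (1.44 to 1.93) and 1.94 (1.68 to 2.24), with log2 changes of 0.62 and 0.82, and DMSO 48 h had 2.92 times the level of DMSO 24 h (2.56 to 3.34), a log2 change of 1.35. At 48 h against 24 h of the same dose, its ratio was 1.83 (1.63 to 2.04) at 100 nM and 1.52 (1.36 to 1.69) at 200 nM. As for BHLHE40, each 48 h library was above each 24 h library, an order that 11.3% of 11893 genes had. With DMSO 48 h as the reference, the 24 h changes of BHLHE41 would be negative. With a 1.5-fold threshold, 4 members were called between the DMSO libraries, BHLHE40, BHLHE41 and HEY1 higher and ID3 lower, where 10.5% of all genes were called.

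**Figure D3:**
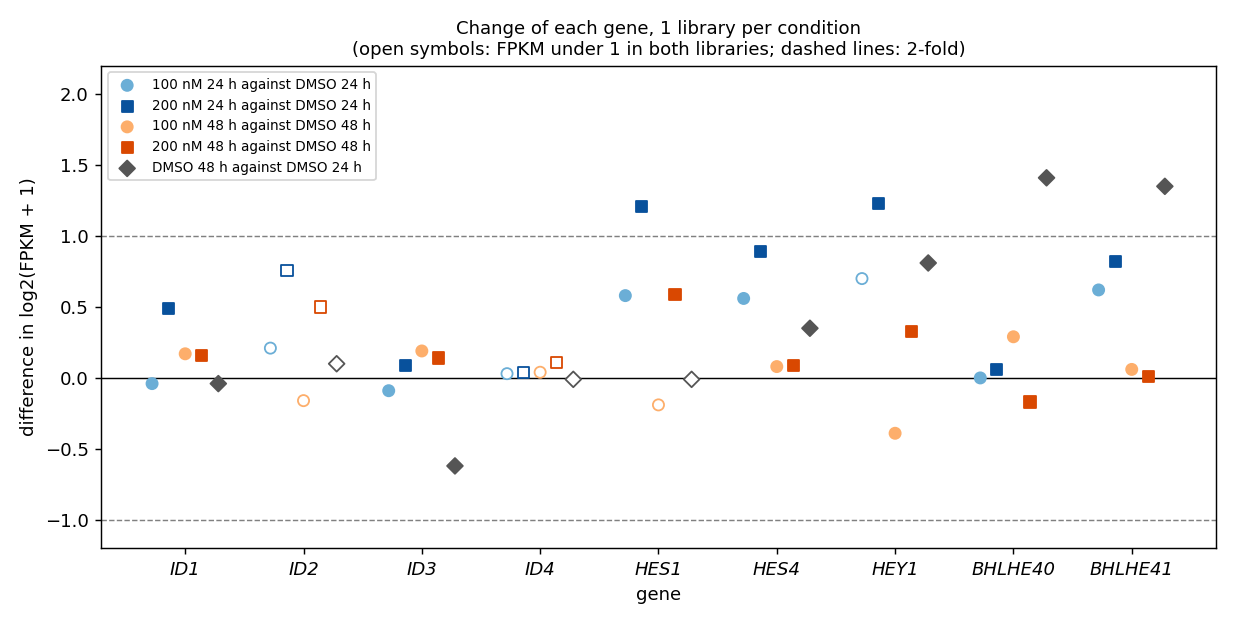
Difference in log2(FPKM + 1) (y axis) of each gene (x axis) in the 4 comparisons of PCI-24781 with DMSO of the same time and in DMSO 48 h against DMSO 24 h; each symbol is 1 library against 1 other, open where the FPKM was under 1 in both, and dashed lines mark 2-fold. HES1 and HEY1 pass 2-fold at 200 nM 24 h with 1.21 and 1.23, and BHLHE40 and BHLHE41 pass it between the DMSO libraries with 1.41 and 1.35.

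At 48 h, no member was called against DMSO, where few genes were called at all. At 200 nM the FPKM ratios of HES1, ID2 and ID1 had intervals above 1, with 1.12 (1.04 to 1.2) for ID1. The ratio of BHLHE40 there was 0.89, with an interval below 1 (0.845 to 0.937). At 100 nM, 0 of 6 tested members were called (0.469% of all tested genes were). The median change was 0.06 over the 9 members and 0.12 over those tested (-0.01 over all tested genes). At 200 nM, 0 of 7 were called (0.266% of all) and the median was 0.14 against 0.01. There 8 of the 9 were above 0, the untested ID2 and ID4 among them, as were 51.0% of all tested genes. The ratio intervals of ID3, ID4, HES4, HEY1 and BHLHE41 included no change. With a 1.5-fold threshold 0 members were called at 100 nM and HES1 alone at 200 nM, where 2.27% and 1.99% of all genes were. ID2, HES1 and HEY1 were lowest at 100 nM and highest at 200 nM at 48 h while they went up with dose at 24 h, and of the 7 members that reached an FPKM of 1, HES1 and HEY1 had this combined order, as did 16.3% of all 11893 such genes. Over all genes, the 48 h libraries were not mostly in the order of dose: 29.6% had 100 nM lowest and 200 nM highest, and 10.2% went up from DMSO to 100 nM to 200 nM, against 32.2% at 24 h. The libraries were used as labelled, and every 48 h change rests on the labels of DMSO 48 h and 100 nM 48 h. Among the 7, HES4 alone went up in dose order at 48 h, on about 61, 67 and 59 fragments and with ratios whose intervals include no change.

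Of the other HES and HEY genes, 6 were found. HES7, which drives the segmentation clock in the embryo, was called higher at 24 h under each dose, and also in DMSO 48 h. Under DMSO, 100 nM and 200 nM its FPKM was 1.05, 4.17 and 7.19 after 24 h and 6.0, 3.92 and 5.46 after 48 h. The levels of the other listed genes are given in that order too. The DMSO 24 h library was the low one for HES7, and the log2 change was 1.33 under 100 nM and 2.0 under 200 nM at 24 h, and 1.77 between the DMSO libraries. At 48 h it was -0.51 and -0.12. The other 5 were not called in any comparison, and HES5 and HEY2 were at or below 0.28.

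Among the listed TLE genes, TLE2 was called higher at 24 h under each dose, and the other 5 found were not called against DMSO. Its FPKM was 0.14, 1.70 and 3.55 after 24 h, then 2.05, 0.57 and 3.91 after 48 h, so the DMSO 48 h library was also above DMSO 24 h, by 1.42 on the log2 scale. The most abundant of this list, TLE5, encodes a short TLE protein whose role as a corepressor was not examined. It had 194.11, 149.58 and 100.76 after 24 h, then 195.03, 225.73 and 148.55 after 48 h. It was lowest at 200 nM at both times, and its log2 change of -0.94 at 200 nM 24 h was just short of 2-fold.

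In the Notch pathway, 1 of 5 ligands and receptors tested (9 found) and 1 of 17 genes of processing and of the nuclear complex tested (22 found) were called higher at 200 nM 24 h, where 4.49% of all tested genes were, and none lower. The receptor NOTCH3 had an FPKM of 1.34, 2.77 and 3.81 after 24 h, then 4.13, 5.43 and 5.35 after 48 h, with a log2 change of 1.04 at 200 nM 24 h and of 1.13 between the DMSO libraries. The coactivator MAML3 had a log2 change of 1.11 at 200 nM 24 h, from an FPKM of 0.74 to 2.76. Its more abundant relative MAML1 had -0.55, from 18.32 to 12.17, and NCSTN had -0.69. Of the 17 tested genes of processing and of the nuclear complex, 10 were above 0 and 7 below at 200 nM 24 h, with a median of 0.15. The ligands JAG1 and JAG2 had changes of 0.82 and 0.86 there, and NOTCH1 had -0.33. RBPJ, which binds the core marked above, was between 35.71 and 44.26 in all 6 libraries. At 100 nM, and at either dose at 48 h, no gene of these lists was called against DMSO.

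In the BMP pathway, the ligands BMP2 and BMP8B and the pseudoreceptor BAMBI were called higher at 200 nM 24 h, as 2 of 10 ligands and receptors tested (17 found) and 1 of 11 SMAD genes and inhibitors tested (13 found), beside the 4.49% of all tested genes. BMP2 had an FPKM of 1.32, 3.24 and 6.02 after 24 h, then 4.37, 3.07 and 5.63 after 48 h. Its log2 change was 1.60 at 200 nM 24 h and 1.21 between the DMSO libraries. BMP4, the most abundant ligand, had 55.28, 74.51 and 101.73 after 24 h, then 64.68, 65.52 and 92.60 after 48 h, and was highest at 200 nM at both times with changes of 0.87 and 0.51. BMP8B, with a change of 1.09, is nearly identical to BMP8A, and reads may have been split between them. Of the SMAD proteins that relay the signal, SMAD5 had a change of 0.11 at 200 nM 24 h, and SMAD1, SMAD4 and SMAD9 had -0.47, -0.26 and -0.19. There the inhibitory SMAD6 and SMAD7 had 0.78 and 0.47.

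Of 13 clock genes tested at 200 nM 24 h (16 found), 1 was called, beside 5.96% of all tested genes. It was PER3, which was lower, with an FPKM of 5.53, 4.16 and 1.74 after 24 h, then 4.30, 5.53 and 4.07 after 48 h. Its log2 change was -1.25. DBP, a clock output gene with E-boxes, had 3.12, 3.50 and 6.30 after 24 h, then 7.08, 11.51 and 7.12 after 48 h. DBP was thus highest at 100 nM 48 h, like BHLHE40. BHLHE41 was highest there too, but its ratio to DMSO 48 h was 1.04 (0.948 to 1.15), an interval that includes no change. No clock gene was called between the DMSO libraries. Of the 13 tested there, 6 were above 0 and 7 below, with a median log2 change of -0.01. The largest rises were 0.97 for DBP and 0.70 for NR1D1, and the largest fall was -0.46 for CRY1.

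**Figure D4:**
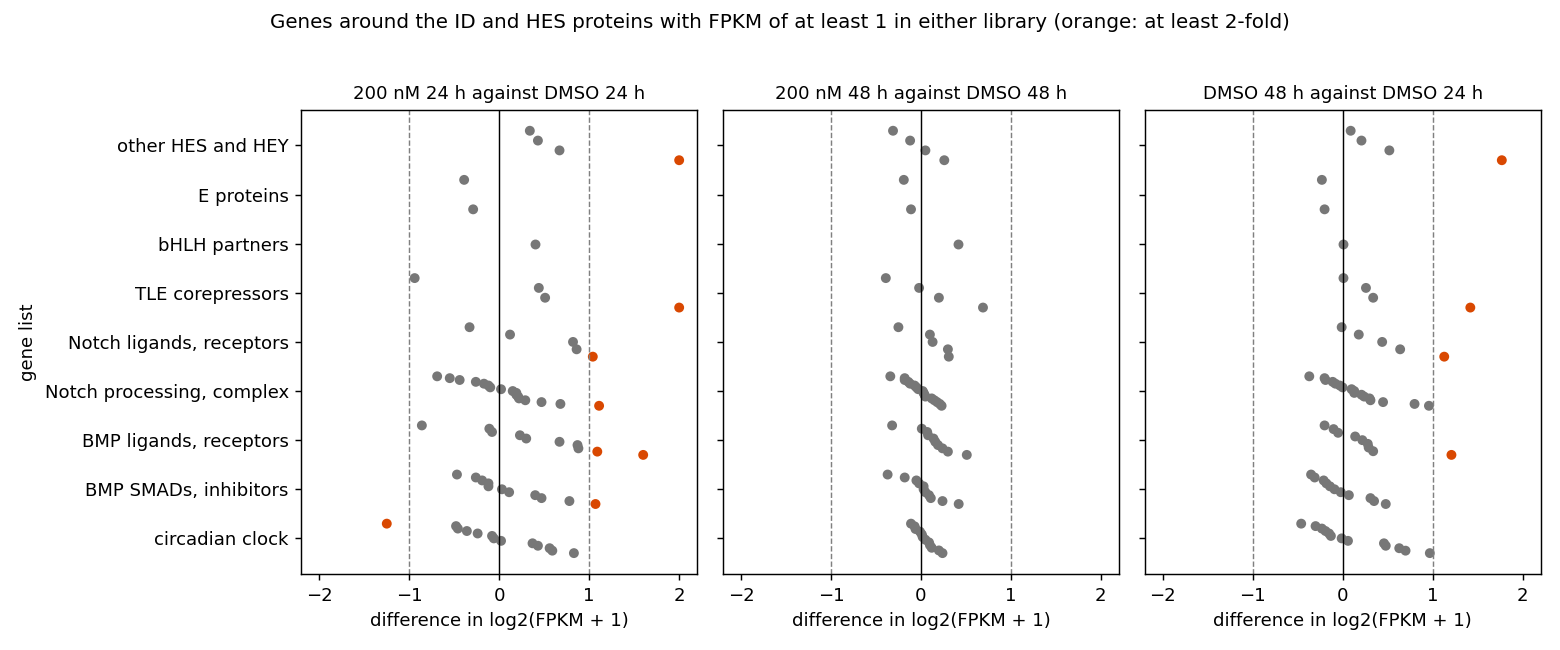
Difference in log2(FPKM + 1) (x axis) of each listed gene that reached an FPKM of 1, by gene list (y axis), for 200 nM against DMSO at 24 h and at 48 h and for DMSO 48 h against DMSO 24 h; each point is 1 gene, in orange where it changed at least 2-fold (dashed lines). At 200 nM 24 h HES7 and TLE2 are farthest to the right at 2.0 each and PER3 is the point on the left at -1.25, while no listed gene is called at 200 nM 48 h.

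The genes with the most similar course over the 6 libraries were sought by the Pearson correlation of log2(FPKM + 1) among about 1230 genes with a range of at least 1 on that scale. With 6 points many genes come close, and 161 had a correlation of at least 0.95 with HEY1, 49 with BHLHE40, 43 with HES1, 42 with BHLHE41, 22 with HES4 and 2 each with ID1 and ID3. The 3 most similar were TIMP4, KRT81 and IFI6 for HEY1 (0.9985 to 0.9978), IFI30, CA8 and NABP1 for HES1 (0.9957 to 0.9884) and MSH5, BBLN and IFT27 for HES4 (0.9979 to 0.9816). They were PFKFB4, SCD and BCL3 for BHLHE40 (0.9971 to 0.9929), ACOT1, ANG and PHLDA3 for BHLHE41 (0.9945 to 0.9905), ADORA2A, CYSRT1 and DISP2 for ID1 (0.9623 to 0.938) and TSPYL4, SLC3A2 and ODC1 for ID3 (0.9719 to 0.9495). All these values share the same 6 libraries and their scaling. PFKFB4, an enzyme of glycolysis control, had an FPKM of 5.11 to 5.60 at 24 h and of 12.04 to 14.37 at 48 h, and IFI30 had 11.41, 19.06 and 29.15 after 24 h, then 12.43, 9.92 and 17.94 after 48 h.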

How the data were processed

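Cells of 1 line were treated in 6 conditions with 1 library each, sequenced at a company after mRNA enrichment or rRNA depletion. The deposited FPKM values come from the authors, and their processing notes name Bowtie2, RSEM and build hg19, without versions. The authors gave no counts. Gene symbols came by NCBI Gene ID from RefSeq (GRCh38.p14), which matched 16585 of 16623 genes and left 38 without a name. None of the 9 genes overlaps another gene of the files. From FPKM, log2(FPKM + 1) was compared between libraries, and a gene was called at 2-fold when either library reached an FPKM of 1, as the methods name no threshold. The depth was inferred from low values of 293 to 348 genes with 1 transcript of 500 to 1500 bases (lengths from GENCODE release 29) with 40 bases subtracted, and is approximate. Ratio intervals are exact (Clopper-Pearson) on the resulting fragments. The call was tested on simulated data with counting error as the only noise. The genes changed there were expressed above HES1 and HEY1, so the calls of these 2 genes were not covered. The members and gene lists were chosen with earlier results of these data known. Genes named from a list were those called in any PCI-24781 comparison, or the most abundant, with further pathway genes chosen after their values were seen. Protein sequences were not used here. Alternatives were other pseudocounts, filters, scalings, a 1.5-fold threshold and the other DMSO library. Python 3.11.15, numpy 2.4.6, pandas 2.3.3, scipy 1.17.1 and matplotlib 3.10.9 were used.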

Additional observations from a re-analysis of the deposited data

Results flagged for a closer look

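For 3 genes, the change at 100 nM had opposite signs at the 2 times, with at least 0.1 on the log2 scale at each. HEY1 had 0.70 at 24 h and -0.39 at 48 h, a difference of -1.08. HES1 had 0.58 and -0.19, a difference of -0.77. ID2 had 0.21 and -0.16, a difference of -0.37, on about 6 and 1 fragments at 100 nM. The interval of the FPKM ratio included no change for HES1 at 48 h and for ID2 at both times, but at neither time for HEY1. The differences were not tested, as single libraries were compared, and they rest on both DMSO libraries and on the labels of DMSO 48 h and 100 nM 48 h. Those 2 libraries did not mostly follow the order of dose, since 10.2% of genes went up from DMSO to 100 nM to 200 nM at 48 h and 29.6% were lowest at 100 nM and highest at 200 nM.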

How the results depend on the processing

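No paired analysis was possible because no condition was sequenced more than once. Scaling by median-of-ratios factors left the number of members called unchanged in all 5 comparisons. The called changes of HES1 and HEY1 at 200 nM 24 h stayed above 0 with DMSO 48 h as the reference, at 1.23 and 0.42. Those of BHLHE40 and BHLHE41 lie between the DMSO libraries themselves, so no other reference was used here for them. Pseudocounts, filters and thresholds cannot change a sign. Dropping the filter could not alter any call, since with a pseudocount of 1 a 2-fold change already needs the higher value to reach 1. That setting is therefore no check of the calls. At 100 nM 24 h, where 0 members were called, 1 was called with a pseudocount of 0.01 (HES1, with 4.11% of all genes called), 1 with a 1.5-fold threshold (BHLHE41), 1 with TPM (HEY1, 2.95%) and 1 with DMSO 48 h as the reference (BHLHE40, lower, 0.571%). At 200 nM 24 h, where 2 were called, 0 were when both libraries had to reach an FPKM of 1 (4.34%), 4 with a 1.5-fold threshold and 4 with TPM (8.56%, with ID2 and HES4 added). Pseudocounts of 0.1 and 0.01 each gave 3 (HES4 added). With DMSO 48 h as the reference 2 were called there, HES1 and, lower, BHLHE40 (2.09%). At 100 nM 48 h, 2 were called instead of 0 with DMSO 24 h as the reference (BHLHE40 and BHLHE41, 1.87%). At 200 nM 48 h, 1 was called instead of 0 with a pseudocount of 0.01 (1.31%) and 1 with a 1.5-fold threshold (HES1 in both), and 3 with DMSO 24 h as the reference (HEY1, BHLHE40 and BHLHE41, 5.16%). Between the DMSO libraries, 4 were called instead of 2 with a 1.5-fold threshold, and 3 (HEY1 added) with either pseudocount and with TPM. Of the 24 member changes of at least 0.1 against DMSO, 7 had the opposite sign with the other DMSO library, namely BHLHE41 at both doses at 24 h, HEY1 at 100 nM at both times, ID3 at both doses at 48 h and BHLHE40 at 200 nM 48 h. The cause of these shifts was not tested, except that low genes weigh more when the pseudocount is smaller or the scale larger, as in TPM. The depth limits ID2 and ID4, and the fragment numbers behind every interval are estimates.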
